A study of Homo sapiens with 6 samples.

Results

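Semaphorins, plexins and neuropilins are the ligands, receptors and co-receptors of one guidance system. Members were chosen by gene symbol: the genes of semaphorin classes SEMA3 to SEMA6 with SEMA7A, the plexins PLXNA to PLXND, and NRP1 and NRP2. The rule found 31 of the 51103 genes counted, 20 semaphorins, 9 plexins and 2 neuropilins. The libraries came from polyadenylated RNA of 2 human gastric cancer cell lines, AGS (from a gastric adenocarcinoma) and HGC-27 (from an undifferentiated gastric carcinoma). In each line there were 2 libraries of cells transduced with a lentivirus for overexpression of NINJ1, a cell-surface adhesion protein that also takes part in plasma membrane rupture, and 1 library of negative control cells. Cells were harvested 48 hours later, per the labels. The labels name neither the promoter of the lentivirus nor separate cultures or clones, so p-values measure the spread between these libraries, which may be technical.

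Semaphorins were first known for steering growing axons, and epithelial and tumour cells use them to control adhesion and migration. Class 3 members are secreted and bind a neuropilin, which presents them to a plexin, whereas most members of the other classes sit in the membrane and bind plexins directly. The inner part of a plexin switches off small GTPases of the Ras and Rap families, and plexins of the B class also activate RHOA through the exchange factors ARHGEF11 and ARHGEF12.

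For the NINJ1 replicate 2 library of each line, the title and the file name disagree on the line. Libraries are called here by the line in the file name, so that AGS NINJ1 replicate 2 is titled HGC-27 and HGC-27 NINJ1 replicate 2 is titled AGS. SEMA6A had 118 counts in AGS NINJ1 replicate 1 and 233 in the AGS control, and for HGC-27 it had 14 counts in NINJ1 replicate 1 and 35 in the control, whose lines are not in doubt. It had 150 counts in the replicate 2 library named AGS and 14 in the one named HGC-27. SEMA3D ran the other way, with 9 and 0 counts in the undisputed AGS libraries, 94 and 278 in the undisputed HGC-27 libraries, 0 in the replicate 2 library named AGS and 84 in the one named HGC-27. These genes were picked for this check after their values were seen.

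Total counts ran from 12619684 to 18175697 per library. The HGC-27 control stood apart: genes above 60% GC took 2.31% of its counts, against 9.25% to 11.3% in the other 5 libraries. The members took 0.056% of its counts, against 0.150% to 0.158% in the NINJ1 libraries and 0.210% in the AGS control, and 13 of the 31 members are above 60% GC. NINJ1 itself had 261 and 221 counts in the AGS libraries labelled NINJ1, against 402 in the AGS control, with a log2 fold change of -0.68 (SE 0.19) that edgeR called (adjusted p = 0.0148) and DESeq2 did not (adjusted p = 0.127). In HGC-27 it had 264 and 300 counts in NINJ1 libraries, against 71 in the control, and was higher (log2 1.89, SE 0.24, edgeR adjusted p = 3.22e-08, and 0.58 with a correction for GC content, adjusted p = 0.0345). Of the line markers, KRT8 and KRT18 (simple epithelial keratins), EPCAM and the mesenchymal VIM, CDH2 and ZEB1 were above 1 FPKM in every library, KRT19 was under 0.1 FPKM in each, and CDH1 (E-cadherin) was under 0.1 FPKM in each AGS library. CLDN4, a tight junction protein, stood at 8.06 to 10.4 FPKM in the other 5 libraries, against 0.725 FPKM in the HGC-27 control. No marker of endothelial cells or leukocytes reached 1 FPKM in any library (0 of 4 each, sums of at most 0.715 and 0.349 FPKM), and 1 of 4 neuron markers and at most 2 of 4 fibroblast markers did.

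Both lines expressed a broad and largely shared set of the family. With expression taken as an FPKM (a count per unit of gene length and of library total) of at least 1 in at least 2 of a line's 3 libraries, AGS expressed 19 members and HGC-27 18. The lines shared 17: PLXNA1, PLXNA2, PLXNA3, PLXNB1, PLXNB2, PLXNB3, PLXND1, SEMA3A, SEMA3B, SEMA3C, SEMA3F, SEMA4B, SEMA4C, SEMA4D, SEMA4F, SEMA6C and SEMA7A. NRP1 and SEMA6A met the threshold in AGS alone and SEMA6D in HGC-27 alone, and 11 members met it in neither line. PLXNA4 and SEMA3E had at most 3 counts and SEMA4A at most 7 counts in any library, and these 3 did not pass the count filter, so 28 members were tested. Without HGC-27 NINJ1 replicate 1 or replicate 2 the HGC-27 set was 10, since the control then had to pass as well.

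**Figure D1:**
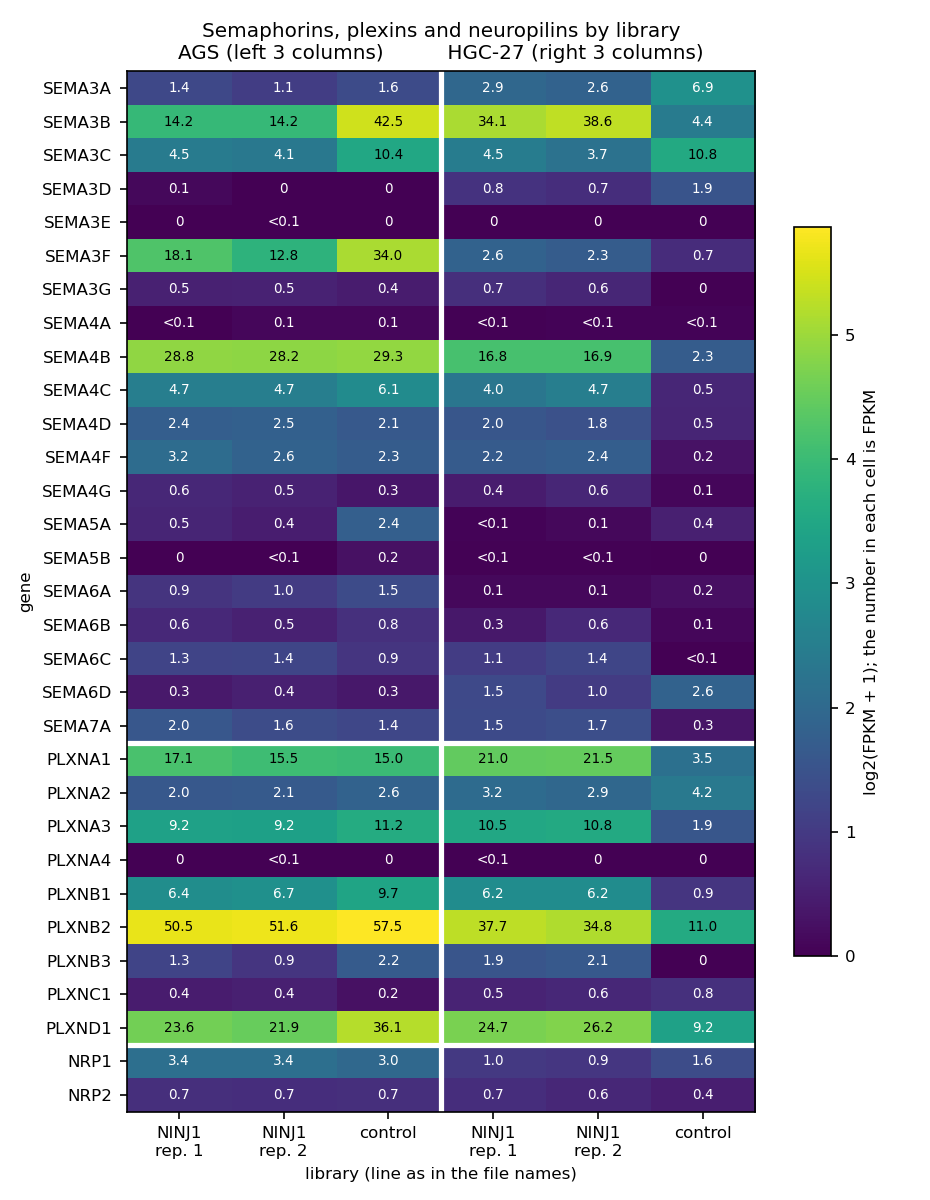
FPKM of all 31 members (rows) in each of the 6 libraries (columns, AGS left and HGC-27 right), with colour for log2(FPKM + 1) and the FPKM printed in each cell. PLXNB2 is the highest plexin in every library, at 50.5, 51.6 and 57.5 FPKM in AGS and 37.7, 34.8 and 11.0 FPKM in HGC-27, and SEMA3F stands at 12.8 to 34.0 FPKM in AGS against 0.684 to 2.58 FPKM in HGC-27.

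Among receptors, levels per length were led by PLXNB2, a receptor for SEMA4C and SEMA4D, followed by PLXND1, a receptor for SEMA3C and SEMA3E. These 2 genes made up 67.1% and 67.9% of the summed plexin FPKM in the AGS libraries labelled NINJ1 and 69.6% in the AGS control. In HGC-27 their share was 59.0% and 58.1% in NINJ1 libraries and 64.2% in the control. PLXND1 stood at 23.6 and 21.9 FPKM in the AGS libraries labelled NINJ1 and 36.1 FPKM in the AGS control, and at 24.7, 26.2 and 9.19 FPKM in the HGC-27 libraries in the same order. PLXNA1, which serves class 3 semaphorins as well as SEMA6C and SEMA6D, came next in all libraries but the HGC-27 control, in which PLXNA2 stood at 4.20 FPKM and PLXNA1 at 3.52 FPKM. PLXNC1, the plexin that binds SEMA7A, stayed between 0.196 and 0.751 FPKM in all 6 libraries.

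Neuropilins were low beside the plexins. NRP1, which binds class 3 semaphorins and also VEGF, stood at 3.41 and 3.43 FPKM in the AGS libraries labelled NINJ1 and 2.97 FPKM in the AGS control. In HGC-27 it stood at 0.965 and 0.911 FPKM in NINJ1 libraries and 1.56 FPKM in the control, just under the threshold in the pair of libraries that kept it off the HGC-27 list. NRP2, the neuropilin preferred by SEMA3F and SEMA3G, was between 0.412 and 0.743 FPKM in every library and met the threshold in neither line.

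The pairs were read from a list of known semaphorin receptors for 18 of the 20 semaphorins; SEMA4B and SEMA4F have no receptor on it. In AGS, 7 of the 18 semaphorins were expressed together with a listed receptor, and in HGC-27 4 were. SEMA4C with PLXNB2, SEMA4D with PLXNB1 and PLXNB2, and SEMA6C with PLXNA1 were met in both lines. AGS also met SEMA3A, SEMA3B and SEMA3C with NRP1 and PLXNA1, PLXNA2 or PLXNA3, SEMA3C with NRP1 and PLXND1, and SEMA6A with PLXNA2. HGC-27 also met SEMA6D with PLXNA1. SEMA3F, at 18.1, 12.8 and 34.0 FPKM in AGS, had no listed pair because NRP2 was under the threshold. SEMA7A, at 1.38 to 2.04 FPKM in all libraries but the HGC-27 control, had none because PLXNC1, its only listed receptor, was under it. The list leaves out integrins. ITGB1, an integrin chain that binds SEMA7A, stood at 74.8 to 159 FPKM over the 6 libraries. The counts of semaphorins with a listed receptor move with the threshold: at 0.5 FPKM they were 10 in AGS and 11 in HGC-27, and at 2 FPKM 4 in AGS and 1 in HGC-27. With expression required in all 3 libraries of a line, and likewise without both replicate 2 libraries, they were 5 in AGS and 1 in HGC-27. Among the NINJ1 libraries alone they were 6 and 4. Messenger RNA levels say nothing of protein at the surface.

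**Figure D2:**
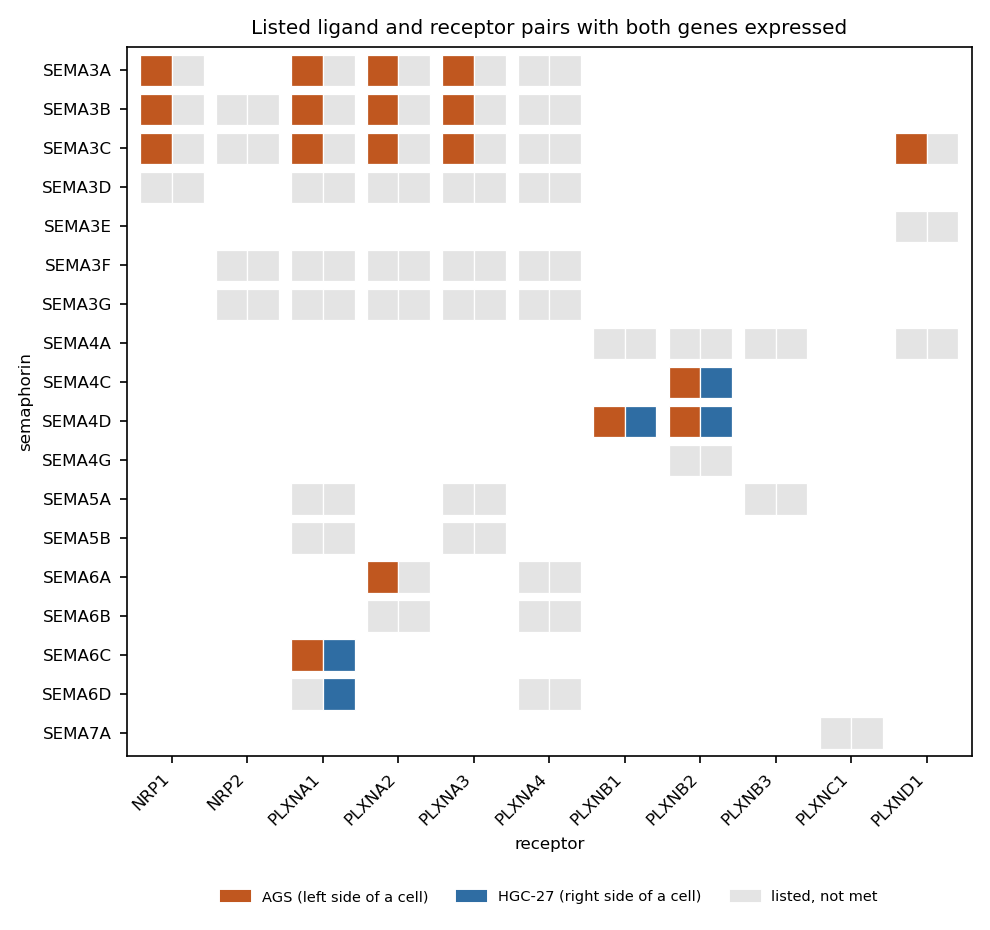
Semaphorins (rows) and their listed receptors (columns), with the left side of a cell coloured where AGS and the right side where HGC-27 expressed both genes at 1 FPKM or more in at least 2 of 3 libraries. For class 3 semaphorins other than SEMA3E a neuropilin and a plexin both had to be met, which left the 3 class 3 semaphorins SEMA3A, SEMA3B and SEMA3C in AGS and none in HGC-27.

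AGS was compared with HGC-27 in the NINJ1 libraries, 2 per line, because this contrast uses neither control. Of the 28 members tested, 7 were higher and 7 lower in AGS (25% each way), where 20.2% of all 17617 genes tested were higher and 20.0% lower. The members' shares lie near that background. The median log2 difference was 0.091 over the members and -0.006 over all tested genes. All 14 calls were also made with the GC correction, which added SEMA4F as higher and called 21.7% of all genes higher and 22.0% lower. Between the replicate 1 libraries alone, whose line is not in doubt, all 14 had the same direction, without a test.

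Among the ligands, the widest differences above 0 were those of SEMA6A, SEMA5A and SEMA3F. SEMA6A, a membrane-bound ligand of PLXNA2 and PLXNA4, stood at 0.853 and 1.03 FPKM in the AGS libraries labelled NINJ1 and at 0.0882 and 0.0849 FPKM in HGC-27 NINJ1 libraries (log2 fold change 3.43, SE 0.29, edgeR adjusted p = 9.00e-12). Its antisense gene SEMA6A-AS1 moved with it, with 15 and 14 counts in the AGS libraries labelled NINJ1 and 0 and 0 in those of HGC-27, and the strand setting of the counting is not given in the sources used here, so the part of these reads in the SEMA6A counts was not tested. SEMA5A, a membrane protein with thrombospondin repeats, had 79 and 62 counts in the AGS libraries labelled NINJ1 and 7 and 17 in HGC-27 NINJ1 libraries (log2 2.73, SE 0.33, edgeR adjusted p = 2.84e-08). SEMA3F, a secreted ligand of NRP2, stood at 18.1 and 12.8 FPKM in the AGS libraries labelled NINJ1 and 2.58 and 2.27 FPKM in HGC-27 NINJ1 libraries (log2 2.67, SE 0.15, edgeR adjusted p = 4.53e-16). For each of these 3 genes the NINJ1 libraries of the lines did not overlap. The genes were picked by their calls, and the share of all tested genes without overlap was not counted.

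SEMA4B, a membrane-bound ligand, stood at 28.8 and 28.2 FPKM in the AGS libraries labelled NINJ1 and 16.8 and 16.9 FPKM in HGC-27 NINJ1 libraries (log2 0.76, SE 0.11, edgeR adjusted p = 4.16e-07). SEMA4D, the ligand of PLXNB1, differed least among the called ligands, with 2.36 and 2.51 FPKM in AGS and 1.96 and 1.76 FPKM in HGC-27 (log2 0.39, SE 0.14, edgeR adjusted p = 0.0306). Its call was lost with DESeq2 (adjusted p = 0.174). It was also lost in edgeR without AGS NINJ1 replicate 1 (adjusted p = 0.112), AGS NINJ1 replicate 2 (0.265) or HGC-27 NINJ1 replicate 2 (0.0788).

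Lower in AGS were 3 secreted class 3 ligands and SEMA6D. SEMA3B stood at 14.2 and 14.2 FPKM in the AGS libraries labelled NINJ1 and 34.1 and 38.6 FPKM in HGC-27 NINJ1 libraries (log2 -1.36, SE 0.11, edgeR adjusted p = 3.53e-12). SEMA3A, which collapses growth cones through NRP1 and plexin-A receptors, stood at 1.42 and 1.10 FPKM in AGS and 2.92 and 2.59 FPKM in HGC-27 (log2 -1.13, SE 0.16, edgeR adjusted p = 5.25e-07). SEMA3D had 9 and 0 counts in AGS and 94 and 84 counts in HGC-27 (edgeR adjusted p = 5.98e-09, and 0.195 by DESeq2), so its fitted log2 difference of -4.08 rests on 9 counts. SEMA6D, a membrane-bound ligand of PLXNA1, stood at 0.315 and 0.423 FPKM in AGS and 1.46 and 1.03 FPKM in HGC-27 (log2 -1.75, SE 0.24, edgeR adjusted p = 2.79e-07). The NINJ1 libraries of the lines did not overlap for any of the 4, which were also picked by their calls.

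Of the receptors, NRP1 and 4 plexins were called. NRP1 was higher in the AGS libraries labelled NINJ1, at the levels given above (log2 1.86, SE 0.15, edgeR adjusted p = 5.46e-12). PLXNB2 stood at 50.5 and 51.6 FPKM in the AGS libraries labelled NINJ1 and 37.7 and 34.8 FPKM in HGC-27 NINJ1 libraries (log2 0.49, SE 0.10, edgeR adjusted p = 0.000225). Lower in AGS were PLXNA1 (log2 -0.38, SE 0.10), PLXNA2 (-0.53, SE 0.13) and PLXNB3, a receptor of SEMA5A (-0.93, SE 0.21), and the adjusted p by edgeR was 0.00341, 0.00149 and 0.000461. PLXNB3 stood at 1.29 and 0.860 FPKM in AGS and 1.94 and 2.12 FPKM in HGC-27. Calls were lost for PLXNA2 without AGS NINJ1 replicate 1 (edgeR adjusted p = 0.0665) and for PLXNA1 and PLXNB3 without AGS NINJ1 replicate 2 (0.162 and 0.0515). PLXNA3, PLXNB1, PLXNC1, PLXND1 and NRP2 did not pass, with log2 differences between -0.43 and 0.17.

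**Figure D3:**
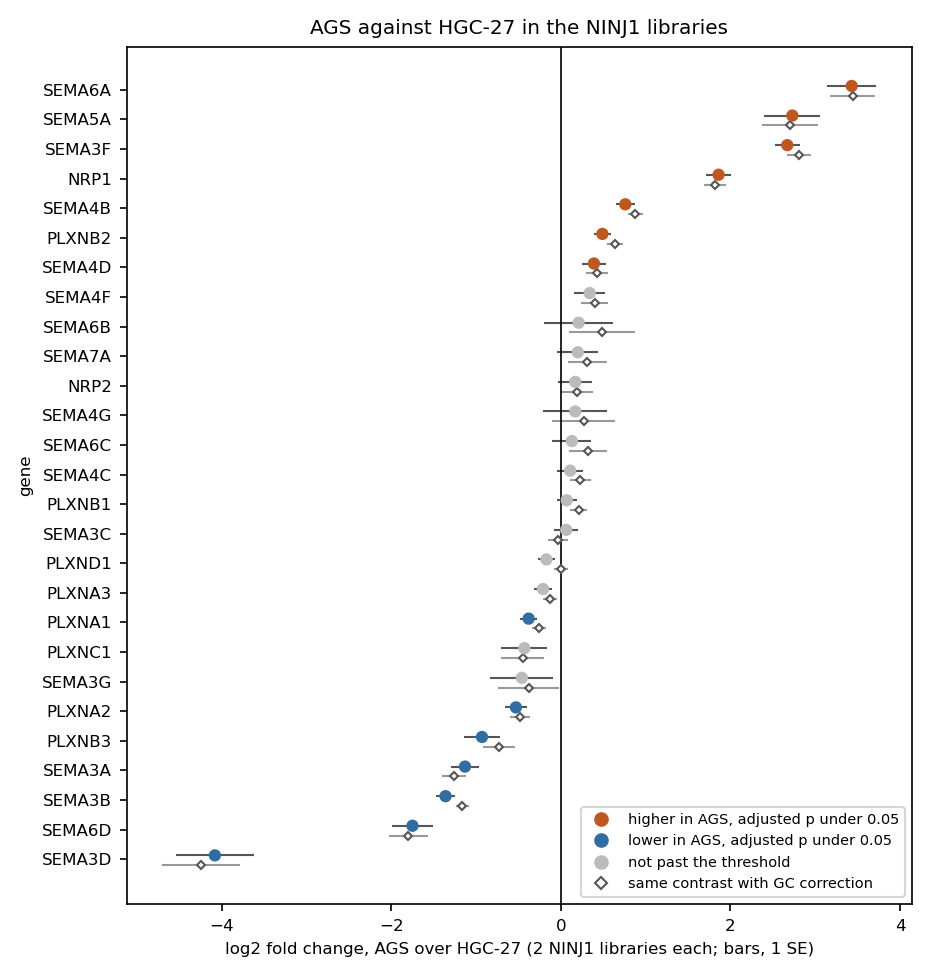
Log2 fold change of AGS over HGC-27 in the NINJ1 libraries (x axis, bars 1 SE) for 27 tested members (rows), coloured by edgeR call, with open diamonds for the GC-corrected fit; SEMA5B is left out for its counts of at most 3 in these libraries. SEMA6A at 3.43 and SEMA3D at -4.08 mark the ends, and the diamonds lie close to the points.

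With all 6 libraries and treatment as an added term, 3 members were higher in AGS (SEMA3F, SEMA5A and SEMA6A) and 1 lower (SEMA6D), 10.7% and 3.57% of 28, where 3.27% of all tested genes were higher and 2.87% lower. Their log2 differences were 3.47 (SE 0.60), 2.52 (SE 0.40), 3.19 (SE 0.31) and -2.30 (SE 0.45), and the adjusted p by edgeR was 0.0304, 0.0237, 0.00656 and 0.0418. Libraries of the lines did not overlap for SEMA3F, SEMA6A and SEMA6D over all 3 per line, and the share of all tested genes without overlap was not counted. SEMA5A overlapped, with 0.517, 0.386 and 2.42 FPKM in AGS and 0.0400, 0.0934 and 0.428 FPKM in HGC-27. With either control left out, the line term of this fit rests on the NINJ1 libraries alone. It then repeats the contrast given before and is no separate check. The count of 4 was 14 without either control, 1 without AGS NINJ1 replicate 2, 2 without AGS NINJ1 replicate 1 and 0 without either HGC-27 NINJ1 library. Without both replicate 2 libraries it was 5, with SEMA3D added as lower.

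The study's own question was what changed with NINJ1 transduction, and in AGS more members were lower than higher. Of 28 tested, 9 were lower in the AGS libraries labelled NINJ1 than in the AGS control and 0 higher (32.1% and 0%), where 9.30% of all tested genes were lower and 5.73% higher. The median log2 change was -0.28 over the members (also with SEMA3D, which had no count in the control, at its bound) and 0.004 over all tested genes. All 9 were also lower with the GC correction, which called 10.9% of all genes lower and 7.60% higher and added SEMA6C as higher. The calls of members depend on single libraries: 15 were called (13 lower, 2 higher) without HGC-27 NINJ1 replicate 1, 14 (13 lower, 1 higher) without HGC-27 NINJ1 replicate 2, 8 (7 lower, 1 higher) without AGS NINJ1 replicate 2 and 7 (all lower) without AGS NINJ1 replicate 1. Calls over all tested genes moved too: they rose without either HGC-27 NINJ1 library and fell without either AGS library labelled NINJ1. NINJ1 messenger RNA was not higher in the AGS libraries labelled NINJ1 than in the control, so their treatment is known from the labels alone. The contrast rests on 1 control library, which is assumed to vary like the NINJ1 pairs, and all 9 kept their direction without the replicate 2 libraries. The 4 fibroblast markers summed to 3.80 and 3.27 FPKM in the AGS libraries labelled NINJ1, against 10.8 FPKM in the control (1, 1 and 2 of 4 at 1 FPKM or more, LUM and PDGFRA under 0.1 FPKM in each), and their part in these results was not tested. In bulk RNA, fewer expressing cells and less RNA per cell cannot be told apart.

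SEMA3B, SEMA3F and SEMA3C, all secreted, were among them. SEMA3B and SEMA3F are neighbours on the short arm of chromosome 3 and have been described as tumour suppressors in lung cancer. In GENCODE release 29 (GRCh38) SEMA3F lies at chromosome 3, 50155045 to 50189075, and SEMA3B at 50267558 to 50277546, both on the plus strand and 78483 bases apart. Their RefSeq promoter windows (GRCh38.p14, plus strand, 250 bases before to 50 after the annotated start) are shown for 2 reasons. Both genes were lower in the AGS libraries labelled NINJ1, yet in the NINJ1 libraries they differ in opposite directions between the lines. For SEMA3B that direction holds in the NINJ1 libraries only. Its AGS control stood at 42.5 FPKM and its HGC-27 control at 4.44 FPKM. Over all libraries its log2 difference between the lines was -0.16 (SE 0.95, edgeR adjusted p = 0.934). Capitals mark the E-box CACCTG or its reverse complement CAGGTG, searched on both strands.
SEMA3F, chr3:50154808-50155107: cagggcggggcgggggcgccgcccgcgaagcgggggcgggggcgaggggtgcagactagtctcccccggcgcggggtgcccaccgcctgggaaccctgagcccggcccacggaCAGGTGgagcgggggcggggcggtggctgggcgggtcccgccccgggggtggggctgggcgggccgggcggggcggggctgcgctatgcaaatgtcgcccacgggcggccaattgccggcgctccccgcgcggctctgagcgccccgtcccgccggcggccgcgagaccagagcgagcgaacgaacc
SEMA3B, chr3:50267402-50267701: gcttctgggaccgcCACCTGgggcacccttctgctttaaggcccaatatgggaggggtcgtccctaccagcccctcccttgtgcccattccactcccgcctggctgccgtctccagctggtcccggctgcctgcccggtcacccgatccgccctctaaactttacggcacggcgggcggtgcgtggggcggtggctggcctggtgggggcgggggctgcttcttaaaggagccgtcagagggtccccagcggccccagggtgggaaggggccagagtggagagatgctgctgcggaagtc
Each window holds 1 such E-box, at base -137 relative to the start in SEMA3F and at -236 in SEMA3B, and 20.6% of all 35116 RefSeq windows of this length hold at least 1. The SEMA3F window has 44 CpG dinucleotides and 81.3% GC, and the SEMA3B window 18 CpG and 68.7% GC, where the median over all windows is 14 CpG.

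SEMA3B stood at 14.2 and 14.2 FPKM in the AGS libraries labelled NINJ1, against 42.5 FPKM in the AGS control (log2 -1.63, SE 0.13, 3.10-fold lower, edgeR adjusted p = 2.25e-11). SEMA3F stood at 18.1 and 12.8 FPKM in the AGS libraries labelled NINJ1, against 34.0 FPKM in the AGS control (log2 -1.19, SE 0.15, edgeR adjusted p = 9.26e-07). Its antisense gene SEMA3F-AS1 had 3 and 7 counts in NINJ1 libraries and 10 in the control. SEMA3C, a secreted ligand that signals through NRP1 or NRP2 and PLXND1, stood at 4.45 and 4.09 FPKM, against 10.4 FPKM in the control (log2 -1.33, SE 0.16, edgeR adjusted p = 1.55e-07). In each of these 3 genes the control lay above both NINJ1 libraries by more than the NINJ1 libraries lay apart. The genes were picked by their calls in this contrast, so the gap adds no support to the calls. The share of all tested genes with such a gap was not counted.

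Both class 5 semaphorins and SEMA6A were lower as well. SEMA5A had 79 and 62 counts in the AGS libraries labelled NINJ1, against 409 in the AGS control (log2 -2.48, SE 0.25, 5.57-fold lower, edgeR adjusted p = 7.78e-09). SEMA5B had 0 and 1 counts, against 25 in the control (edgeR adjusted p = 0.00340, and an unadjusted p of 0.0187 by DESeq2, which gave no adjusted p), a count ratio of 0.0215 with a 95% counting interval of 0.000525 to 0.132, which covers counting error only. SEMA6A had 118 and 150 counts in NINJ1 libraries, against 233 in the control (log2 -0.75, SE 0.25, edgeR adjusted p = 0.0364). The call of SEMA6A was lost without AGS NINJ1 replicate 1 (0.268), without replicate 2 (0.0988) and with DESeq2 (0.319).

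The receptors that were lower in the AGS libraries labelled NINJ1 were PLXND1, PLXNB1 and PLXNB3. PLXND1 stood at 23.6 and 21.9 FPKM, against 36.1 FPKM in the control (log2 -0.72, SE 0.12, edgeR adjusted p = 8.47e-05). PLXNB1, the receptor of SEMA4D, stood at 6.36 and 6.68 FPKM, against 9.70 FPKM (log2 -0.63, SE 0.14, edgeR adjusted p = 0.00206, and 0.0797 without AGS NINJ1 replicate 1). PLXNB3 stood at 1.29 and 0.860 FPKM, against 2.20 FPKM (log2 -1.09, SE 0.24, edgeR adjusted p = 0.00183, 0.0925 without AGS NINJ1 replicate 2 and 0.0631 by DESeq2). SRPK3 overlaps PLXNB3 on the same strand, so reads at their shared exons may have been split. PLXNB2, PLXNA1 and NRP1, the most abundant receptors of their kinds, had log2 changes of -0.22, 0.066 and 0.15 that did not pass.

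**Figure D4:**
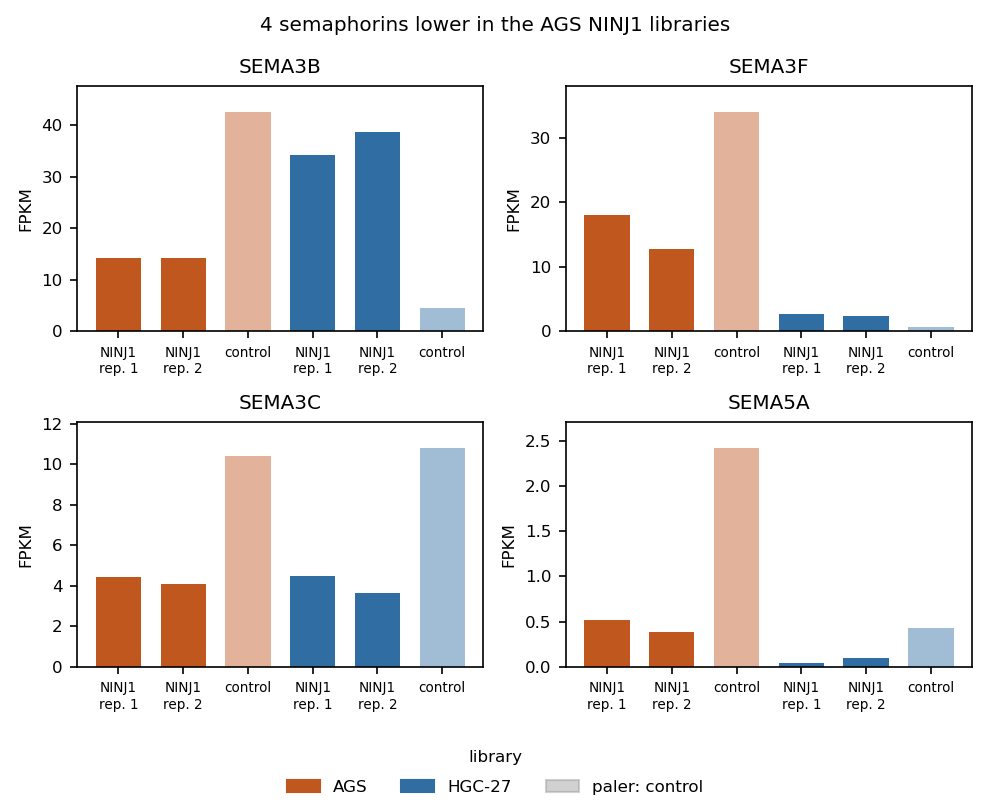
FPKM of SEMA3B, SEMA3F, SEMA3C and SEMA5A (1 panel each, linear axis from 0) in every library, AGS left and HGC-27 right, with controls paler. In each panel both AGS NINJ1 bars lie below the AGS control, SEMA3B for example at 14.2 and 14.2 FPKM against 42.5 FPKM, and SEMA3C and SEMA5A show the same order in HGC-27.

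In HGC-27, 17 of 28 members were higher and 9 lower in NINJ1 libraries than in the control (60.7% and 32.1%), where 34.0% of all tested genes were higher and 29.1% lower. The contrast rests on 1 control library, which stands apart from the other 5 and is assumed to vary like the NINJ1 pairs: it had 19371 genes with a count, against 22839 to 23396 in the others, besides its lower share of GC-rich counts. The direction went with GC content. Of the 13 members at or above 60% GC, 12 were called higher (all but SEMA5B, with 2 and 3 counts against 0), with a median log2 change over the 13 of 2.44, or 2.20 with PLXNB3 and SEMA5B at their bound. The 8 under 50% GC were all called lower, with a median of -1.59. In AGS the same GC classes had medians of -0.59 and -0.10. The share of all tested genes called in each GC class was not counted. Over the 28 members Spearman's rho between GC content and the log2 change was 0.715 in HGC-27 and -0.284 in AGS, given as a description over genes that share the same libraries. With the GC correction 8 members were higher and 12 lower (28.6% and 42.9%), where 23.2% and 25.7% of all tested genes were, and the members' median moved to -0.053. Without the correction that median was 1.75, or 1.44 with PLXNB3, SEMA3G and SEMA5B, which had no count in the control, at their bound. The median of all tested genes was 0.12, and 0.004 with the correction. The fibroblast markers summed to 5.38 and 5.77 FPKM in HGC-27 NINJ1 libraries, against 0.912 FPKM in the control. Nearly all of this was COL1A1, at 5.36 and 5.71 FPKM, against 0.812 FPKM. PDGFRA, PDGFRB and LUM were under 0.1 FPKM in each HGC-27 library, and LUM was found in the control alone. The part of these markers in the results was not tested.

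**Figure D5:**
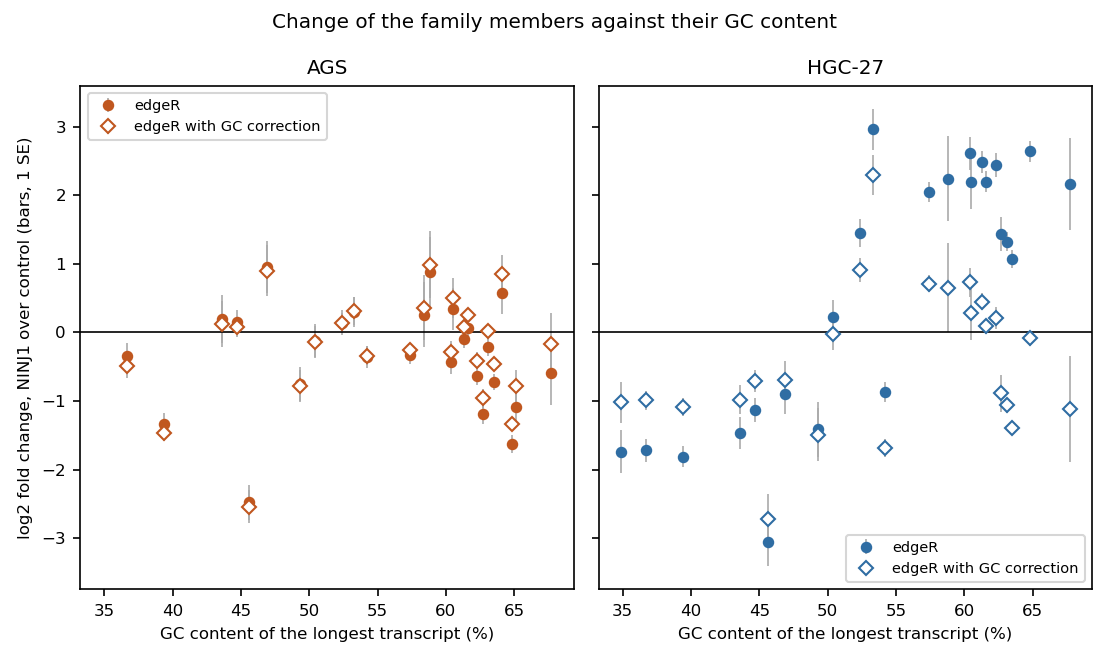
Log2 fold change of NINJ1 over control (y axis, bars 1 SE) against the GC content of each member's longest transcript (x axis) in AGS (left) and HGC-27 (right), with filled circles for edgeR and open diamonds with the GC correction; genes with at most 1 count in every library of a group are left out (SEMA3D and SEMA5B in AGS, PLXNB3, SEMA3G, SEMA5B and SEMA6C in HGC-27). In HGC-27 the circles lie below 0 under 50% GC and above 1 from 60% GC on and the diamonds do not separate in this way, while the 2 symbols lie close together in AGS.

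Lower in HGC-27 in both fits were 9 members: NRP1, PLXNA2, PLXNC1, SEMA3A, SEMA3C, SEMA3D, SEMA5A, SEMA6A and SEMA6D. Of all tested genes 29.1% were lower without the GC correction and 25.7% with it, and the share lower in both fits was not counted. SEMA3C stood at 4.49 and 3.66 FPKM in HGC-27 NINJ1 libraries, against 10.8 FPKM in the HGC-27 control (log2 -1.81, SE 0.15, edgeR adjusted p = 4.88e-12, and -1.09 with the GC correction). SEMA3A stood at 2.92 and 2.59 FPKM, against 6.88 FPKM (log2 -1.72, SE 0.17, edgeR adjusted p = 7.41e-11, and -0.99 with the GC correction). SEMA5A had 7 and 17 counts, against 94 (log2 -3.05, SE 0.36, edgeR adjusted p = 6.71e-09, and -2.72 with the GC correction). The control lay above both NINJ1 libraries in all 3, which were picked by their calls in this contrast, so this adds no support to them.

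SEMA3D, with 94 and 84 counts against 278, and SEMA6D, with 181 and 133 against 407, were lower by log2 -1.74 (SE 0.31) and -1.47 (SE 0.23). SEMA3D was not called by DESeq2 (adjusted p = 0.623), nor was PLXNC1 (0.123). PLXNC1 had 70 and 85 counts, against 135 in the control (log2 -0.90, SE 0.29, edgeR adjusted p = 0.00766). NRP1 had 161 and 158 counts, against 326 (log2 -1.13, SE 0.18, edgeR adjusted p = 2.61e-06), and PLXNA2 633 and 601, against 1053 (log2 -0.87, SE 0.15, edgeR adjusted p = 7.05e-06, and -1.68 with the GC correction). The control again lay above both NINJ1 libraries for each of these genes, which were also picked by their calls.

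Higher in HGC-27 in both fits were 8 members: PLXNA3, PLXNB3, SEMA3G, SEMA4B, SEMA4C, SEMA4D, SEMA4F and SEMA6C, 4 of them of class 4. Of all tested genes 34.0% were higher without the GC correction and 23.2% with it, and the share higher in both fits was not counted. SEMA4F, a membrane-bound ligand, had 198 and 221 counts in NINJ1 libraries, against 25 in the control (log2 2.96, SE 0.30, edgeR adjusted p = 2.98e-10, and 2.29 with the GC correction). SEMA4B had 1702 and 1780 counts, against 289 (log2 2.49, SE 0.16, edgeR adjusted p = 3.09e-15), and a log2 change of 0.45 with the GC correction (edgeR adjusted p = 0.00399). SEMA4D had 401 and 374 counts, against 133 (log2 1.45, SE 0.20, and 0.91 with the GC correction), and SEMA4C 352 and 433, against 60 (log2 2.61, SE 0.24, and 0.73). The control lay below both NINJ1 libraries in all 4, which were likewise picked by their calls.

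3 of these members were all but absent from the HGC-27 control. PLXNB3 had 197 and 224 counts in NINJ1 libraries and 0 in the control. With the control at 3 counts it was at least 86.3-fold higher per library total, without TMM scaling. SEMA3G, a secreted ligand of NRP2, had 52 and 42 counts against 0, at least 19.3-fold higher on the same scale. SEMA6C had 90 and 118 counts against 1, a ratio of 128 with a 95% counting interval of 22.7 to 5081, and its log2 change was 6.43 (SE 0.66) without the GC correction and 3.98 (SE 0.84, 15.7-fold, edgeR adjusted p = 0.000345) with it. The GC contents of these genes are 65.1%, 58.4% and 64.1%, and the counts behind these bounds and this ratio are not corrected for GC content. Nor are they scaled by TMM, with which the fitted fold of SEMA6C was 86.5 without the GC correction. The bounds were not computed on the TMM scale.

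The other 9 members that were higher without the correction did not stay so. PLXNA1, PLXNB1, SEMA3B, SEMA4G, SEMA6B and SEMA7A were not called with the GC correction, and PLXNB2, PLXND1 and SEMA3F were called lower. PLXNB2 had 3962 and 3804 counts in HGC-27 NINJ1 libraries, against 1452 in the control, a log2 change of 1.32 (SE 0.14) and of -1.06 (SE 0.11) with the GC correction. PLXND1 had a log2 change of 1.07 (SE 0.13) without the correction and -1.39 (SE 0.10) with it, and SEMA3F 1.43 (SE 0.25) and -0.89 (SE 0.27). SEMA3B had 2848 and 3352 counts, against 466, a log2 change of 2.64 (SE 0.15) and of -0.086 (SE 0.11) with the correction. SEMA6B was also lost without HGC-27 NINJ1 replicate 2 (edgeR adjusted p = 0.0777).

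SEMA3C, SEMA5A and SEMA6A were the 3 members called lower in the libraries labelled NINJ1 of both lines, in HGC-27 with and without the GC correction. Of all tested genes 9.30% were lower in AGS and 29.1% in HGC-27 (25.7% with the GC correction). The share lower in both lines was not counted. NINJ1 itself had log2 changes of opposite sign in these contrasts, -0.68 in AGS and 1.89 in HGC-27. The calls of SEMA6A were lost in AGS under the settings given above and with limma on log2(FPKM + 1) (adjusted p = 0.297), and in HGC-27 with limma (log2 -0.11, adjusted p = 0.674). A test that pooled the lines, with line as an added term, called 0 members and 0% of all tested genes with edgeR, where 6 members had an unadjusted p under 0.05. In that test SEMA3C had a log2 change of -1.58 (SE 0.22) and SEMA5A of -2.75 (SE 0.38), each with an edgeR adjusted p of 0.222. These 2 genes, and no other member, were called lower with DESeq2 (adjusted p = 2.04e-05 and 2.00e-06) and with the GC correction in edgeR (0.0127 and 0.0156), which called 1.70% of all genes lower and 0.324% higher. The count was 9 without the HGC-27 control and 26 without the AGS control, which leaves the change to the other line.

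The log2 change between libraries labelled NINJ1 and control was also tested for a difference between the lines. It was higher in AGS than in HGC-27 for 5 members and lower for 17 (17.9% and 60.7% of 28), where 23.9% of all tested genes were higher and 30.2% lower. With the GC correction the counts were 7 and 9, where 17.9% and 17.3% of all genes were called. The same call was made in both fits for 13 members, and PLXNB2 and PLXND1 were called in opposite directions. The share of all tested genes with the same call in both fits was not counted. SEMA3B, called in both, had a difference of -4.27 (SE 0.20, edgeR adjusted p = 2.74e-17), or -1.24 under the GC correction (SE 0.15, edgeR adjusted p = 5.87e-07).

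Other genes of the pathway were read from 3 lists. Of 33 intracellular effectors and partners 31 were tested, and among NINJ1 libraries AGS had 8 higher and 5 lower than HGC-27, where 20.2% of all tested genes were higher and 20.0% lower. CRMP1, a mediator of SEMA3A signalling, had 465 and 528 counts in AGS and 123 and 103 in HGC-27 (log2 2.32, SE 0.16, edgeR adjusted p = 1.44e-13). ARHGEF12, the exchange factor of plexin-B receptors, had 4265 and 4557 counts in AGS and 2078 and 1950 in HGC-27 (log2 1.32, SE 0.11, edgeR adjusted p = 3.15e-12), and the kinase PAK1 was lower in AGS (log2 -1.21, SE 0.14). In the AGS libraries labelled NINJ1 2 effectors were higher and 4 lower than in the AGS control, where 5.73% of all tested genes were higher and 9.30% lower. DPYSL2, the CRMP family member that binds tubulin, had 938 and 999 counts, against 1778 in the control (log2 -0.82, SE 0.13, edgeR adjusted p = 2.49e-05), FARP1 was lower (-0.54, SE 0.13) and ARHGEF11 higher (0.52, SE 0.15). In HGC-27 NINJ1 libraries 9 were higher and 14 lower than in the control, against 34.0% and 29.1% of all tested genes, and 5 and 16 with the GC correction, against 23.2% and 25.7%. Without the GC correction FARP1 was lower there too (log2 -1.28, SE 0.13), while GIPC1 (2.73, SE 0.17) and RHOD (2.68, SE 0.22) were higher. With the GC correction RHOA (-1.09, SE 0.091), MICAL3 (-1.43, SE 0.12) and ARHGAP35 (-0.97, SE 0.094) were lower. Uncorrected, MICAL3 stood above the control, at 2.42 and 2.93 FPKM against 1.86 FPKM. RHOA stood at 216 and 198 FPKM, against 367 FPKM, and ARHGAP35 at 16.8 and 17.9 FPKM, against 18.1 FPKM.

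Of 18 surface partners 12 were tested, and among NINJ1 libraries AGS had 4 higher and 1 lower than HGC-27, against 20.2% and 20.0% of all tested genes. The receptor kinase MET, which associates with plexin-B receptors, had 4635 and 4844 counts in AGS and 3183 and 2948 in HGC-27 (log2 0.81, SE 0.10, edgeR adjusted p = 9.60e-08). ITGB1, the integrin chain that binds SEMA7A, was higher as well (log2 0.60, SE 0.10), as was PGF, a growth factor that binds neuropilins (2.39, SE 0.40). In the AGS libraries labelled NINJ1 4 were lower and 0 higher than in the AGS control, where 9.30% of all tested genes were lower and 5.73% higher. ITGA1 had 887 and 1038 counts, against 2018 in the control (log2 -1.02, SE 0.14, edgeR adjusted p = 1.72e-06), L1CAM, a partner of NRP1, changed by -0.67 (SE 0.12) and VEGFB, a ligand of NRP1, by -0.99 (SE 0.20). In HGC-27 NINJ1 libraries 6 were higher and 4 lower than in the control, against 34.0% and 29.1% of all tested genes, and 4 and 6 with the GC correction, against 23.2% and 25.7%. ITGA1 was lower in HGC-27 too (log2 -2.30, SE 0.13, and -1.58 with the GC correction). MET was lower there (-1.78, SE 0.12, and -1.21 with the GC correction), and MST1R was higher without the correction (2.42, SE 0.17). L1CAM was lower with the correction (-1.82, SE 0.10). Uncorrected, L1CAM stood at 41.5 and 42.9 FPKM in HGC-27 NINJ1 libraries, above the 32.0 FPKM of the control.

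Of 7 proteases that cleave semaphorins 6 were tested, and among NINJ1 libraries AGS had 4 higher and 1 lower than HGC-27, against 20.2% and 20.0% of all tested genes. FURIN, which processes class 3 semaphorins, had 2214 and 2232 counts in AGS and 1219 and 1433 in HGC-27 (log2 0.93, SE 0.11, edgeR adjusted p = 1.49e-08). MMP14, which sheds SEMA4D, had 14 and 10 counts in AGS and 156 and 171 in HGC-27 (log2 -3.57, SE 0.32, edgeR adjusted p = 4.61e-11). FURIN was the 1 of the 6 called between the AGS libraries labelled NINJ1 and the AGS control, which had 3839 counts (log2 -0.73, SE 0.13, edgeR adjusted p = 8.89e-05). In HGC-27 NINJ1 libraries 2 were higher and 2 lower than in the control, against 34.0% and 29.1% of all tested genes, and 1 and 3 with the GC correction, against 23.2% and 25.7%. FURIN stood at 1.19 (SE 0.15) and at -0.92 (SE 0.11) with the correction. ADAM17 was lower in both (-1.24, SE 0.14, and -0.51, SE 0.11, with the correction). MMP14 was higher without the correction (2.44, SE 0.37), and PCSK6 was lower with it (-0.91, SE 0.15). Uncorrected, PCSK6 stood at 2.19 and 2.26 FPKM in HGC-27 NINJ1 libraries, above the 1.45 FPKM of the control.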

How the data were processed

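Gene expression was measured by RNA sequencing in 6 libraries. Each deposited table gives raw counts of reads per gene and the matching FPKM, per the file headers. Per the submitters' processing notes, the authors used HISAT2, HTSeq 0.13.5 and GRCh38; the annotation release and strand setting are not given in the sources used here. The deposited FPKM equals the count divided by 1 length per gene and by the library total, to a relative departure of at most 8.32e-09 over 9626 genes with at least 200 counts. Whole counts were tested with edgeR 4.0.16 (R 4.3.3): filterByExpr with a minimum count of 10 left 17617 genes, scaling was by TMM, and two-sided quasi-likelihood F tests were adjusted by Benjamini-Hochberg over all tested genes, with a threshold of 0.05. One mean per line and treatment was fitted, or line and treatment as additive terms. A standard error (SE) was taken as the absolute log2 change over the root of its F statistic. The edgeR fits were also run on simulated counts.

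The GC correction subtracts, per library, a lowess curve (span 0.3) of log counts on the GC content of the longest GENCODE 29 transcript. A count of 0 allows up to 3 counts, and bounds and intervals cover counting error only. Bounds and count ratios use library totals without TMM. Medians with genes at their bound therefore place such values beside TMM-scaled ones. Alternatives were DESeq2 1.42.0, its size factors, no filter, limma 3.58.1 on log2(FPKM + 1), the lines as titled, the GC correction, other FPKM thresholds, each library left out and a replicate block. The 4 NINJ1 libraries fitted alone without a block were added after the data were seen. All members were named, and of each pathway list up to 3 genes a comparison with the smallest p past the threshold. The members and lists were chosen with earlier results of these data known. Promoter sequences are from RefSeq (GRCh38.p14), which held 27 of 31 members.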

Additional observations from a re-analysis of the deposited data

Results flagged for a closer look

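The log2 change between libraries labelled NINJ1 and control differed between AGS and HGC-27 for 22 members, by edgeR's quasi-likelihood test of the difference of log2 changes (AGS minus HGC-27) with Benjamini-Hochberg adjustment over all tested genes. It was higher in AGS for NRP1 (1.28), PLXNC1 (1.85), SEMA3A (1.37), SEMA6D (1.67) and SEMA3D, for which no size is given because the AGS control had no count (adjusted p = 0.00284). The call of SEMA3D was lost with DESeq2 (adjusted p = 0.245) and without AGS NINJ1 replicate 1 (edgeR adjusted p = 1.00), the AGS library that holds its 9 counts. It was lower in AGS for the plexins PLXNA1 (-2.13), PLXNA3 (-2.39), PLXNB1 (-3.07), PLXNB2 (-1.55) and PLXND1 (-1.79). It was also lower for SEMA3B (-4.27), SEMA3F (-2.61), SEMA4B (-2.59), SEMA4C (-3.04), SEMA4D (-1.30), SEMA4F (-2.66), SEMA6B (-2.76) and SEMA7A (-1.85). PLXNB3, SEMA3G, SEMA5B and SEMA6C, with at most 1 count in the libraries of a group, were lower at adjusted p of 3.14e-13, 3.10e-05, 0.00431 and 2.00e-07. Each value takes in the HGC-27 control, whose counts from genes above 60% GC were 2.31% of its total. With the GC correction 13 of the 22 were called the same way, and PLXNB2 and PLXND1 the opposite way. The other 7 were not called with it: PLXNA1, SEMA3A, SEMA3F (-0.075, edgeR adjusted p = 0.880), SEMA4B (-0.37, adjusted p = 0.0770), SEMA5B, SEMA6B and SEMA7A.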

How the results depend on the processing

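With lines as titled, 0 members were called between the lines in NINJ1 libraries (14 with file names), 0 between the lines over all libraries (4), 0 for NINJ1 in AGS (9), 10 for NINJ1 in HGC-27 (26) and 0 for the difference (22). By edgeR's test, 0 of 17617 genes passed between the lines in NINJ1 libraries under the titles, with 19 at an unadjusted p under 0.05. For NINJ1 in HGC-27, 1615 of all tested genes were higher and 534 lower under the titles. In the other contrasts just named 0 passed. DESeq2 called 7 members between the lines over all libraries, where 1346 of 17617 genes were higher and 1113 lower. It called 2 members for NINJ1 over both lines, where 70 of all tested genes were higher and 245 lower. Between the lines over all libraries, no filter gave 7 members, with 627 of 29507 genes higher and 510 lower. The GC correction gave 9 there, with 2021 of 17617 genes higher and 1900 lower. For NINJ1 over both lines the GC correction gave 2, with 57 of all tested genes higher and 300 lower. With limma on log2(FPKM + 1) the counts were 4 for NINJ1 in AGS, 17 in HGC-27 and 14 for the difference. Of 13739 genes in that fit, 405 were higher and 545 lower in AGS, and 5961 and 2470 in HGC-27. For the difference 2159 were higher and 4888 lower.

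Leaving out each library in turn gave 11 to 16 members between the lines in NINJ1 libraries, 0 to 14 over all libraries, 7 to 15 for NINJ1 in AGS, 25 to 26 in HGC-27, 21 to 24 for the difference and 0 to 26 over both lines. For NINJ1 in AGS the count was 15 without HGC-27 NINJ1 replicate 1 and 14 without HGC-27 NINJ1 replicate 2, of which 2 and 1 were higher. Calls over all tested genes rose as well under these settings. Over all libraries and over both lines, too, they moved in the same direction as the members' calls. The 14 over all libraries arises without a control and repeats the contrast in NINJ1 libraries. In the same way members expressed in HGC-27 (18) ranged from 10 to 18. Semaphorins expressed together with a listed receptor ranged from 5 to 6 in AGS (7) and from 1 to 4 in HGC-27 (4). HGC-27 expressed 10 members when all 3 libraries had to pass and 10 without both replicate 2 libraries. Semaphorins with an expressed listed receptor were 4 in AGS at 2 FPKM. In HGC-27 they were 11 at 0.5 FPKM, 1 at 2 FPKM, 1 in all 3 libraries, 1 without both replicate 2 libraries and 7 with lines as titled. Without both replicate 2 libraries the fit with 1 mean per line and treatment has no spread, so it gives directions and no count.

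With the GC correction the sign turned for NINJ1 in HGC-27 in PLXNB2 (-1.06), PLXND1 (-1.39), SEMA3B (-0.086), SEMA3F (-0.89) and SEMA6B (-1.12), and for the difference in PLXNA1 (0.16), PLXNB2 (1.08), PLXND1 (0.93), SEMA6B (0.95) and SEMA7A (0.20). With lines as titled it turned between the lines in NRP1 (-0.038), PLXNA1 (0.080), PLXNB2 (-0.070), PLXNB3 (0.29), SEMA3A (0.00034), SEMA3B (0.13), SEMA4D (-0.12) and SEMA6A (-0.27), for NINJ1 in HGC-27 in NRP1 (0.10) and SEMA6A (1.27), and for the difference in NRP1 (-0.62). The cause was not tested beyond these values. The deviations of same-numbered NINJ1 libraries correlated at r = 0.0078 over 17617 genes, so the numbers do not pair them; with the replicate block in the 4 NINJ1 libraries 14 members were called, and 14 without it.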
